A study of Mus musculus with 18 samples.

Results

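Cycling thymocytes were taken as the cells in which the raw UMIs (unique molecular identifiers, each counting 1 captured transcript molecule) of Top2a, Cdk1, Ccna2, Birc5, Rrm2 and Pclaf summed to at least 5. The rule found 93 of 1331 cells, or 6.99% (95% exact Clopper-Pearson interval 5.68 to 8.49%). A further 75 cells had a sum of 1 to 4 and entered no main comparison, and 1163 cells had a sum of 0 and served as the comparison cells. The members were thus chosen by the measured RNA of these 6 genes, so their levels are given as a description and not tested.

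The study put the bone marrow of mice with a fixed T cell receptor, OT1 or OT2, into hosts that differ in what the thymus can present to that receptor. OT1 recognises an ovalbumin peptide on MHC class I and OT2 one on MHC class II. Each host received 30% donor marrow (CD45.1.2) with 70% competitor marrow (B6 CD45.1), and each thymus was taken 6 weeks after transplant from a mouse labelled as 14 weeks old and female. Cells were sorted as CD44lo CD45.1.2+ with the variable chains that both receptors use (Va2+ Vb5+), which leaves out host and competitor cells, and were profiled by droplet sequencing of RNA and of antibody tags in 1 lane, with hashtags marking the mouse. Wild-type C57BL/6 hosts are labelled PosSelected. RIPmOVA hosts, in which an insulin gene promoter drives membrane-bound ovalbumin, are labelled NegSelected. The hosts labelled NoSelection were b2m KO mice, which lack MHC class I at the cell surface, for OT1. For OT2 the labels contradict each other: 1 field gives an MHCII KO host and comment fields give a b2m KO host. Each combination of receptor and host is 1 mouse, so no difference between hosts could be tested, and the order OT1 NoSelection, OT1 PosSelected, OT1 NegSelected, OT2 NoSelection is used below wherever 4 values follow each other.

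In the thymus, precursors divide in bursts. A large burst follows the assembly of a working beta chain, in cells that do not yet carry CD4 or CD8, continues through an immature stage that carries CD8 alone, and ends as cells become small CD4+CD8+ thymocytes, which stop dividing and rearrange the alpha chain. After selection, cells carry CD4 or CD8 alone and leave the thymus mostly without dividing. In receptor transgenic mice the receptor appears early, and cells that carry it can stay CD4-CD8-.

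The depth of the libraries has to be read before any comparison. All 6 mice together held 6926058 RNA UMIs and 5537880 antibody UMIs, with 686 to 43580 RNA UMIs per cell, and the 1331 cell barcodes were all different. The rule counts raw UMIs, and the cells it chose were deep: members had a median of 14036 RNA UMIs and 3956 detected genes, and cells with a sum of 0 had medians of 3791 and 1773. The members' mitochondrial share was lower (median 0.813% against 1.39%), and their antibody UMIs had a median of 3843 against 4487. Within mice that gap was uneven: members had a median of 1645 against 4302 antibody UMIs in OT1 PosSelected and 947 against 4525.5 in OT2 NoSelection, while in OT1 NoSelection it was 3953 against 4184 and in OT1 NegSelected 5365.5 against 4836. Of the members, 46 of 93 lay above the 95th percentile of RNA UMIs of their own mouse, against 18 of 1163 comparison cells. Whether any were doublets was not tested. For genes in members against comparison cells, results without the cells above that percentile are given below. They are also given for genes between the gates of members and for the cycling share. The antibody comparisons, the gate shares and the receptor comparisons were not repeated without those cells. Xist, the RNA that coats the inactive X chromosome of females, differed between the receptors. Comparison cells held 1.16 to 5.75 CPM (UMIs of a gene per 1000000 RNA UMIs of the pooled cells) in the 3 OT1 mice and 361 to 468 CPM in the 3 OT2 mice. Y-linked Ddx3y was at 0 in all of them. The sorted cells come from donor marrow, so these levels do not test the female label of the mouse that received it. The OT1 and OT2 cells therefore differ in more than the receptor.

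Markers of other cell types did not mark the members. Of 8 myeloid markers, 6 were at 0 in the members, among them Csf1r and C1qa, and the summed level was 0 to 6.65 CPM over the 4 mice with 5 or more members against 1.16 to 9.0 CPM in comparison cells. Of 6 erythroid markers, 5 were at 0, and of 6 thymic epithelial markers, Krt5, Krt8, Foxn1, Psmb11 and Aire were at 0. Of 7 markers of natural killer and innate lymphoid cells, Ncr1, Klrb1c, Eomes and Klre1 were at 0, and the summed level was 105 to 234 CPM in members and 134 to 315 CPM in comparison cells. B cell markers summed to 243 to 423 CPM in members and 211 to 426 CPM in comparison cells, with Pax5 at 0 in members. Markers of gamma delta T cells, which the sort does not remove if they carry the transgenic chains, were present in both: 1175 to 2809 CPM in members and 714 to 5123 CPM in comparison cells.

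The members carried the genes of replication and of mitosis together. Top2a, the topoisomerase that untangles replicated chromosomes, was detected in 78 of the 93 members, Rrm2, a subunit of the enzyme that makes deoxynucleotides, in 77, and Pclaf, which binds the replication clamp, in 88. Cdk1, the mitotic kinase, was detected in 62, its partner Ccna2 in 68, and Birc5, part of the complex that aligns chromosomes, in 82. All 6 were found in 47 members, 4 or more in 76, and only 1 or 2 in 10. The rule sum had a median of 35 UMIs and ran from 5 to 155. Just inside the threshold, 6 cells had a sum of 5 and 3 cells a sum of 6, with median depths of 10595 and 5013 RNA UMIs. Just outside it, 2 cells had a sum of 4 and 3 a sum of 3, with median depths of 10320 and 9109 RNA UMIs. By these medians, cells with a sum of 3, 4 or 5 were deep. The 3 cells with a sum of 6 lay nearer the comparison cells' median of 3791. Each of these groups is only a few cells.

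Genes of the cycle that the rule did not name followed it, as a description of the same cells. Mki67, the common proliferation antigen, was detected in 85 of 93 members and 28 of the 1238 other cells. Its level in members was 603, 694, 555 and 778 CPM, against 0, 2.46, 6.95 and 12 CPM in cells with a sum of 0, so the groups did not overlap. Tyms, which makes thymidylate, was detected in 80 members and 39 others. Plk1, a mitotic kinase, was detected in 43 members and 1 other cell. Pcna, the replication clamp, was less specific, with 79 members and 171 other cells.

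Members differed in where they stood between replication and mitosis. Of the UMIs of 40 S phase genes and 51 genes of G2 and mitosis, the S phase share ranged from 1.43% to 73.2% over the 93 members, with a median of 37.2%. The median per mouse was 41.1, 37.2, 32.1 and 54.0%, and 44.4% in the 2 members of OT2 NegSelected. By antibody gate (described further on) it was 39.4% in 62 CD4-CD8- members, 33.5% in 26 CD4-CD8+ members and 11.3% in 5 CD4+CD8+ members. In OT1 PosSelected alone the share covered the whole range, while the 2 members of OT2 NegSelected were at 33.3 and 55.6%.

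The promoters of 3 genes of the rule are shown because genes of G2 and mitosis are known to be held down in resting cells by a complex that binds a short element, TTTGAA, near the start site, often with CCAAT boxes placed before it. The 110 bases before the RefSeq start (GRCm38.p6) are printed 5′ to 3′ on the gene's strand, with TTTGAA and CCAAT on either strand (TTCAAA and ATTGG when reversed) in capitals.
Top2a, chr11:99024190-99024299, minus strand: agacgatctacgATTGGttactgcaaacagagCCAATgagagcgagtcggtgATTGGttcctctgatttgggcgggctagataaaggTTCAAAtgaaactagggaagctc
Cdk1, chr10:69352913-69353022, minus strand: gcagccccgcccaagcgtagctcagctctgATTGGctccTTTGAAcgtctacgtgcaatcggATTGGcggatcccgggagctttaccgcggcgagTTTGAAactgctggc
Pclaf, chr9:65890213-65890322, plus strand: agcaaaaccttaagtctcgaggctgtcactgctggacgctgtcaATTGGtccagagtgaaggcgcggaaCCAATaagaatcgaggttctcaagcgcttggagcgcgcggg
In the window of 250 bases before the start, TTTGAA was found for 2 of the 5 rule genes with a promoter in the table (40.0%), for 17 of 44 genes of G2 and mitosis (38.6%), for 19.4% of S phase genes and for 18.3% of the 27025 genes searched. CCAAT was found for 80.0%, 79.5%, 61.3% and 37.5% of the same groups. The E2F element TTTCCCGC was found for none of the 5 rule genes or the 44 genes of G2 and mitosis, for 12.9% of S phase genes and for 1.03% of the genes searched. These are matches of letters, not measured binding.

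Cycling cells were found in all 3 OT1 mice and were sparse in OT2. In OT1 the share was 31 of 306 cells (10.1%, interval 6.99 to 14.1%) in NoSelection, 33 of 282 (11.7%, 8.19 to 16%) in PosSelected and 20 of 204 (9.80%, 6.09 to 14.7%) in NegSelected. The 3 OT1 intervals overlapped, so no order of the hosts can be read. In OT2 it was 7 of 108 (6.48%, 2.65 to 12.9%) in NoSelection, 0 of 254 in PosSelected, which allows a share of up to 1.18%, and 2 of 177 (1.13%, 0.137 to 4.02%) in NegSelected. Over the 3 mice of each receptor, 84 of 792 OT1 cells (10.6%, 8.55 to 13%) and 9 of 539 OT2 cells (1.67%, 0.766 to 3.15%) were cycling. Intervals and limits of zero counts cover counting error only, and the share was set by the rule, so it was not tested between groups.

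Depth differed between the mice, so the share was also taken after each cell was thinned to 1500 RNA UMIs and called with at least 2 UMIs of the 6 genes. It was then 8.05, 8.89 and 5.53% in the OT1 mice and 4.12, 0 and 1.28% in the OT2 mice, with 5 to 21 shallower cells left out per mouse. The 3 OT1 values stayed above those of OT2 PosSelected and OT2 NegSelected, but the intervals of OT1 NegSelected (2.79 to 9.68%) and OT2 NegSelected (0.156 to 4.55%) overlapped. The interval of OT2 NoSelection (1.13 to 10.2%) overlapped those of all 3 OT1 mice.

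**Figure D1:**
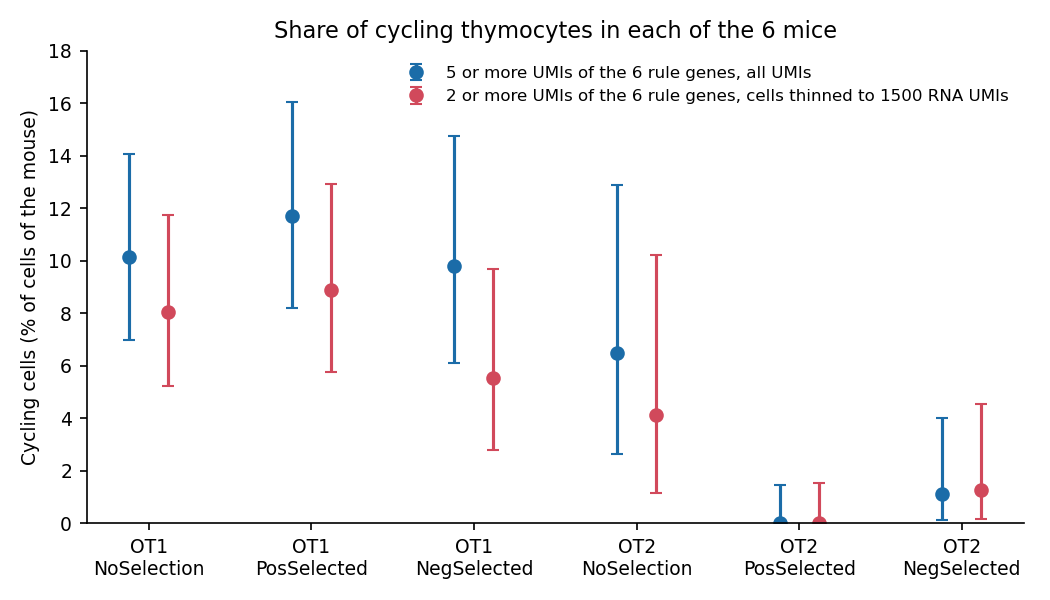
Share of cells called cycling (y axis, percent) in each of the 6 mice, with 95% exact intervals, for the rule and for cells thinned to 1500 RNA UMIs. The 3 OT1 mice sit between 9.80 and 11.7% by the rule, and OT2 PosSelected is at 0.

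Most cycling cells lay below the antibody cuts for both coreceptors, and none lay in the CD4+CD8- gate. Cells were gated on antibody UMIs at log2 (UMI + 1) of 6.39 for CD4 and 5.75 for CD8A. A minus sign means below the cut, not absent. CD4-CD8- members of OT1 NoSelection, PosSelected and NegSelected averaged 20.4, 25.2 and 17.2 CD8A UMIs per cell. CD4-CD8+ members of the same mice averaged 162, 387 and 214. Of the 93 members, 62 were CD4-CD8- (66.7%), 26 were CD4-CD8+ (28.0%), 5 were CD4+CD8+ (5.38%) and 0 were CD4+CD8-, which allows up to 3.23%. Of the 1163 comparison cells, 607 were CD4-CD8- (52.2%), 176 CD4-CD8+ (15.1%), 163 CD4+CD8+ (14.0%) and 217 CD4+CD8- (18.7%); 138 of those 217 came from OT2 PosSelected, which had no cycling cell.

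Within mice, the CD4+CD8- gate was the one that differed in the same direction throughout, but a count of 0 can only differ downward. Its share of comparison cells was 10 of 251, 23 of 237, 10 of 167 and 7 of 94, and it held no member in any of the 4 mice. In OT1 NoSelection, OT1 NegSelected and OT2 NoSelection, 0 members allows a share of up to 9.68 to 42.9%. Comparison cells there had 3.98 to 7.45%, so an unchanged share is not excluded in these mice. In OT1 PosSelected it allows up to 9.09%, just below the 9.705% of comparison cells. The mean difference was -6.78 percentage points (SD 2.41, n = 4 mice, lower in 4 of 4), with a two-sided exact sign-flip permutation p of 0.125 and an adjusted p of 0.5 over 4 gates. With 4 mice this test cannot go below 0.125, so it could not have passed 0.05.

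The other gates differed between mice in direction. CD4-CD8- cells were 58.1, 72.7, 60.0 and 85.7% of the members and 84.1, 45.1, 72.5 and 44.7% of the comparison cells, lower in OT1 NoSelection and OT1 NegSelected and higher in the other two (mean difference 7.54 points, SD 31.9, n = 4, exact permutation p = 0.625). CD4-CD8+ cells were 41.9, 21.2, 25 and 14.3% of the members and 8.77, 32.1, 14.4 and 13.8% of the comparison cells (mean 8.35 points, SD 18.7, n = 4, exact permutation p = 0.5). CD4+CD8+ cells were 0, 6.06, 15 and 0% of the members and 3.19, 13.1, 7.19 and 34.0% of the comparison cells (mean -9.11 points, SD 17.8, n = 4, exact permutation p = 0.5). The adjusted p was 0.625 for these 3 gates. Both members of OT2 NegSelected were CD4-CD8-.

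Read the other way, over the pooled cells the cycling share was highest in the CD4-CD8+ gate, but within mice that order held in OT1 NoSelection only. It was 26 of 214 cells over all mice (12.1%, 8.09 to 17.3%), against 62 of 727 in CD4-CD8- cells (8.53%, 6.60 to 10.8%), 5 of 171 in CD4+CD8+ cells (2.92%, 0.956 to 6.69%) and 0 of 219 in CD4+CD8- cells (up to 1.37%). Inside the CD4-CD8+ gate, 13 of 36 cells were cycling in OT1 NoSelection (36.1%, 20.8 to 53.8%), 7 of 87 in OT1 PosSelected (8.05%, 3.30 to 15.9%), 5 of 32 in OT1 NegSelected (15.6%, 5.28 to 32.8%), 1 of 14 in OT2 NoSelection, and 0 of 9 and 0 of 36 in OT2 PosSelected and OT2 NegSelected. The intervals of OT1 NoSelection and OT1 PosSelected did not overlap, but each is 1 mouse. In the CD4-CD8- gate the share was 17.4% in OT1 PosSelected, 10.9% in OT2 NoSelection and 3.92% in OT2 NegSelected, each above the CD4-CD8+ gate of that mouse, and in OT1 NegSelected the CD4+CD8+ gate was highest, with 3 of 15 cells (20%, 4.33 to 48.1%).

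The CD4-CD8- gate is also where antibody depth was lowest. Its members had a median of 1987.5 antibody UMIs, with 31 of 62 under 2000, against 5763 in CD4-CD8+ and 8798 in CD4+CD8+ members; comparison cells showed medians of 2513, 4977.5 and 5464 in the same gates. Among cells with at least 2000 antibody UMIs, 31 members were CD4-CD8-, 20 CD4-CD8+, 5 CD4+CD8+ and 0 CD4+CD8-. The mean difference for CD4-CD8- was then -4.62 points over 3 mice, because OT2 NoSelection kept only 2 members. Leaving out that mouse alone gave -3.63 points. How much of the CD4-CD8- share comes from thinly stained cells was not tested.

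**Figure D2:**
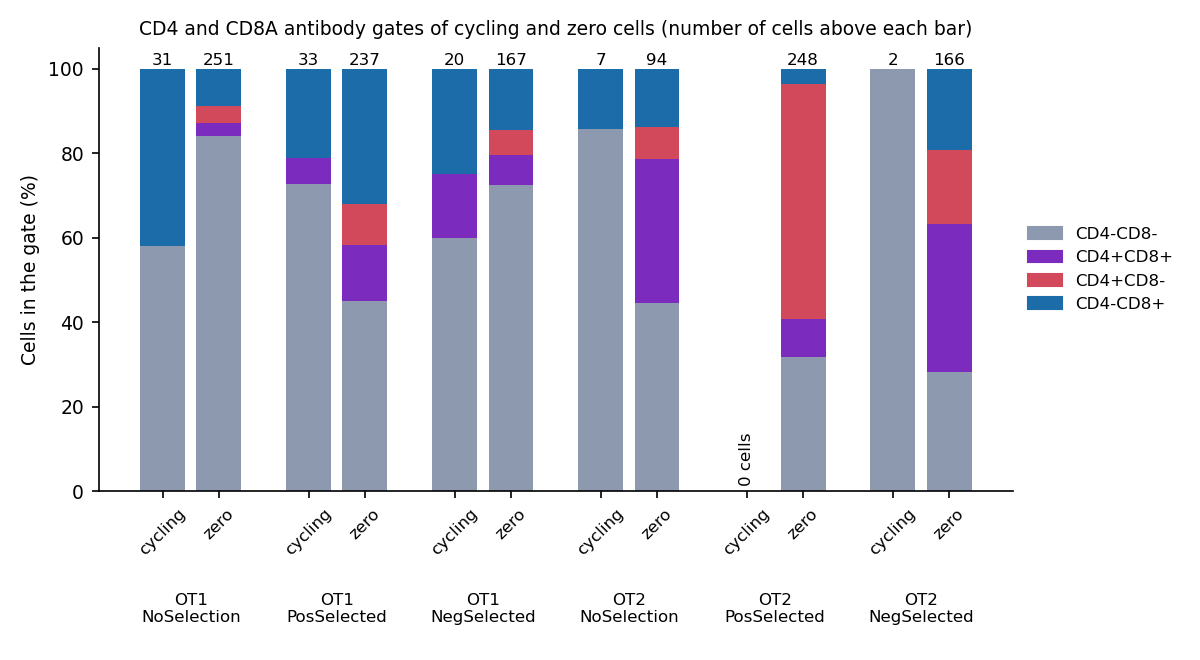
Share of cells in each of the 4 CD4 and CD8A antibody gates (y axis, percent) for cycling cells and for cells with a rule sum of 0, by mouse. No cycling cell lies in the CD4+CD8- gate, and the CD4-CD8- share is higher in members than in comparison cells in 2 of 4 mice.

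Cycling cells differed from comparison cells across much of the transcriptome. Against cells of the same mouse with a sum of 0, over the 4 mice with at least 5 cells in each class, 7735 genes were tested, and 1843 were higher (23.8%) and 1716 lower (22.2%) at an adjusted p under 0.05 (edgeR). With the genes of the cycle, receptor segments, ribosomal and mitochondrial genes set aside, 1353 of 6998 genes were higher and 1657 lower. Those are changes in a gene's part of the RNA. Members also gave more RNA UMIs per cell. When counts were scaled per cell, the median gene moved from -0.04 to 1.64 on the log2 scale. Higher genes went from 51.8% of the calls to 98.5%. RNA content, capture, doublets and the rule's choice of deep cells cannot be told apart in that shift. Of the 1657 lower genes, 320 were also below 0 per cell and 90 passed the test there. Below, levels are CPM and fold changes are log2 per library unless a value is named as per cell.

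Fewer of these calls passed without the deepest cells. Without the cells above the 95th percentile of RNA UMIs, 496 of the 1353 higher and 645 of the 1657 lower genes passed again, and 65 and 36 had the opposite sign. That setting left 16, 19 and 9 members in the OT1 mice. OT2 NoSelection kept 2, under the 5 needed, so this fit and its later values cover OT1 only. Leaving out OT2 NoSelection alone, 1265 and 1548 passed again, with none of opposite sign. Whether depth or the smaller number of members made the difference was not tested. Within CD4-CD8- cells alone, 1063 of the higher and 1295 of the lower genes passed again, with none of opposite sign.

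The genes that rose most, outside the cycle itself, included enzymes of serine and folate metabolism, a nucleoside transporter, a splicing protein and a chaperone. Nt5dc2, a nucleotidase family member, was 146, 133, 116 and 142 CPM in members and 20.5, 9.02, 9.27 and 9.0 CPM in comparison cells. It rose by 3.43 (SE 0.23, adjusted p = 3.0e-14). Psat1, of serine synthesis, was 150, 177, 180 and 151 CPM against 24.6, 43.5, 31.3 and 3.0 CPM and rose by 2.52. Mthfd1 and Mthfd2, which carry folate-bound carbon in the cytosol and the mitochondrion, rose by 2.28 and 2.22. Slc29a1, a nucleoside transporter, was 146, 107, 99.7 and 151 CPM against 22.2, 22.9, 20.9 and 48.0 CPM and rose by 2.35. Fabp5, a fatty acid carrier, was 92.2, 99.6, 116 and 109 CPM against 10.7, 27.1, 15.1 and 21 CPM and rose by 2.54.

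The other named genes that rose include Hsp90aa1, the inducible HSP90 chaperone, at 1036, 1205, 1253 and 1306 CPM in members and 285, 273, 240 and 264 CPM in comparison cells, a rise of 2.21 (SE 0.12, adjusted p = 2.3e-16). Selenoh, a nucleolar selenoprotein, rose by 2.35, from 66.1 to 82.1 CPM in comparison cells to 209 to 413 CPM in members. Snrpd1, a core splicing protein, rose by 2.25. Kcnq5, a potassium channel gene, rose by 2.25, though in OT2 NoSelection the levels were close, 67.0 against 57.0 CPM. AI506816 and 1500009L16Rik, which have no settled role, rose by 2.39 and 2.60. All 12 were higher in 4 of 4 mice, which the rule for naming genes required, and stayed higher per cell. Without the deepest cells Mthfd1 no longer passed (0.88, adjusted p = 0.24, edgeR).

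**Figure D3:**
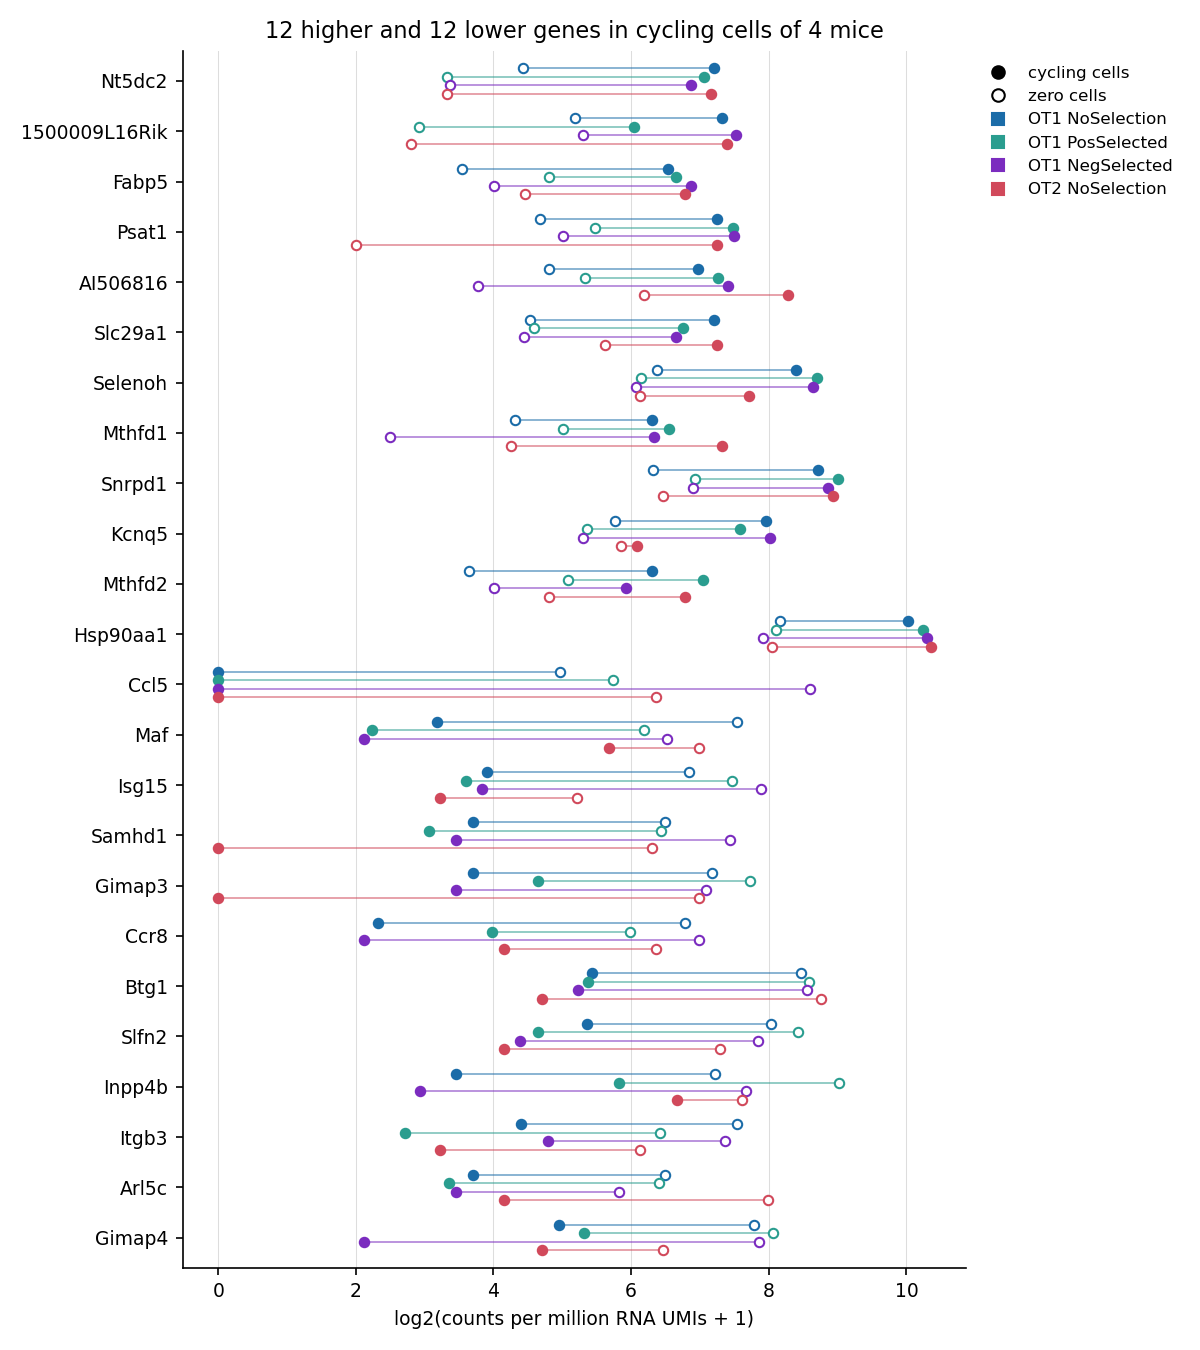
CPM (log axis) of the 12 higher and 12 lower named genes in cycling cells and in cells with a rule sum of 0, 1 point per mouse and class for 4 mice. The 2 classes separate in every mouse for each gene, which the rule for naming genes required. Kcnq5 in OT2 NoSelection shows the smallest gap among the higher genes.

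Most genes of nucleotide and folate synthesis rose. Of 21 tested genes of nucleotide and folate synthesis, 19 rose and 0 fell, with a median of 1.92 against -0.04 over all 7735 genes. Shmt1, a serine to glycine enzyme of the folate pathway, was 50.1, 66.4, 46.5 and 92.1 CPM in members against 4.93, 4.92, 4.64 and 0 CPM and rose by 3.74. Cad, which starts pyrimidine synthesis, rose by 2.50, Impdh2, which commits purines to guanine nucleotides, by 2.0, and Dtymk, which phosphorylates thymidylate, by 1.92. The median was 3.65 per cell and 1.02 without the deepest cells, where 10 of 21 passed.

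Genes of ribosome production, respiration, protein folding and RNA processing rose with smaller folds. All 23 tested genes of oxidative phosphorylation rose (median 0.94), among them Cycs, cytochrome c, by 1.61, and Atp5b, of the ATP synthase, by 1.12. All 19 tested genes of protein folding and the proteasome rose (median 1.04), with the mitochondrial chaperonin Hspd1 at 1.92 and the prolyl isomerase Ppia at 1.49. All 18 tested genes of RNA processing rose (median 1.26), with the splicing factor Srsf2 at 1.90, Lsm2 at 2.16 and the RNA-binding Ybx1 at 1.75. Of 23 tested genes of ribosome biogenesis, 17 rose and 0 fell (median 1.01), with the nucleolar proteins Ncl at 1.5, Npm1 at 1.30 and Fbl at 1.47. Of these 4 lists, ribosome biogenesis changed most without the deepest cells: its median became 0.06, 4 of 23 passed, and Npm1 was at 0.08 (adjusted p = 0.80). RNA processing changed least, with a median of 1.11 and 17 of 18 passing.

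Glycolysis was mixed. Of 14 tested genes, 7 rose and 3 fell, with a median of 0.35 that became -0.03 without the deepest cells. The enzymes Tpi1 (1.91) and Gapdh (1.44) rose. The glucose transporter Slc2a1 fell by 1.06, from 42.7, 32.8, 30.1 and 18 CPM to 18, 16.6, 13.3 and 8.37 CPM, though per cell its value was 0.56 and not called, and Hk1 and Aldoa, which fell by 0.75 and 0.36, rose per cell (0.91 and 1.31). Of 8 tested genes of cholesterol synthesis, 5 rose and 0 fell (median 1.20), with Idi1 at 2.39. Of 3 tested heat shock genes, 2 rose.

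The genes that fell most included brakes on division, survival GTPases of lymphocytes, an interferon product and regulators of gamma delta and effector T cells. Btg1, which restrains division, was 42.1, 40.6, 36.6 and 25.1 CPM in members against 353, 384, 377 and 432 CPM, a fall of 3.23 (SE 0.18, adjusted p = 5.8e-16). Slfn2, known for keeping T cells quiescent, fell by 3.22, from 156 to 341 CPM to 16.7 to 40.1 CPM. Gimap3 and Gimap4, GTPases of lymphocyte survival, fell by 3.41 and 3.02. In comparison cells Gimap3 was 126 to 210 CPM, and in members 12, 24, 9.97 and 0 CPM. All 4 genes were lower per cell too.

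Among the others, Isg15, a ubiquitin-like product of interferon signalling, was 14, 11.1, 13.3 and 8.37 CPM in members against 113, 175, 236 and 36.0 CPM and fell by 3.57. Samhd1, which breaks down deoxynucleotides, fell by 3.46, with 13 UMIs over the 91 members of the 4 mice. Maf, a transcription factor of gamma delta and innate-like T cells, was 8.02, 3.69, 3.32 and 50.2 CPM against 186, 72.1, 90.4 and 126 CPM, and fell by 3.62. Ccr8, a chemokine receptor, fell by 3.29, Itgb3, an integrin subunit, by 3.07, Inpp4b, a lipid phosphatase, by 3.07, and Arl5c, a small GTPase, by 3.02. Ccl5, a chemokine of effector cells, gave 0 UMIs in 91 members and 460 UMIs in the comparison cells, at least 61.7-fold lower against a floor of 3 counts over the group. Those 460 UMIs came from 14 of 749 cells, so few cells carry that value. All 12 named genes were lower in 4 of 4 mice, which the rule for naming genes required, and all 12 passed as lower per cell.

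Quiescence genes as a list fell per library and not per cell. Of 20 tested, 0 rose and 16 fell (median -1.17), while the per-cell median was 0.50, with 6 of 20 below 0. Txnip, which brakes glucose uptake, was 106, 66.4, 56.5 and 75.3 CPM against 380, 258, 280 and 441 CPM and fell by 2.0, with a per-cell value of -0.33 that was not called. Pik3ip1, a brake on PI3 kinase, fell by 1.95 and Foxo1 by 1.67, with per-cell values of -0.30 and -0.03. Klf2, a transcription factor of resting and emigrating T cells, fell by 1.33 per library and was at 0.35, not called, per cell. The retinoblastoma gene Rb1, which restrains entry into S phase, was at 0.36 and not called (adjusted p = 0.10).

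Maturation and interferon genes fell per library, and part of them also per cell. All 16 tested genes of single-positive maturation and egress fell (median -2.14), and 11 were below 0 per cell (median -0.49, 7 called). S1pr1, the receptor by which thymocytes leave, was 10.0, 5.54, 6.65 and 0 CPM in members against 112, 116, 90.4 and 45 CPM and fell by 3.83. Cd52, a surface glycoprotein of mature lymphocytes, fell by 2.28 and the survival cytokine receptor Il7r by 2.60, both also lower per cell. Ccr7, which draws selected cells to the medulla, fell by 1.87 per library, with a per-cell value of -0.24 that was not called. All 14 tested interferon response genes fell (median -2.54), and 12 were below 0 per cell (median -0.94, 9 called). Ifit1 fell by 4.83 and Irf7 by 3.65, each also lower per cell. The maturation and interferon lists had 15 of 16 and 13 of 14 called without the deepest cells.

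MHC class I genes held a smaller part of the members' RNA. Of 11 tested, 8 fell (median -1.21), while the per-cell median was 0.50. B2m, the light chain, was 379, 352, 429 and 452 CPM in members against 1051, 957, 1020 and 699 CPM; it fell by 1.21 per library and rose by 0.54 per cell. H2-K1 and H2-D1, the heavy chains, fell by 1.71 and 1.68 per library and were at -0.01 and 0.00 per cell. Nlrc5, the transactivator of these genes, fell by 3.28 and stayed lower per cell (-1.66).

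Genes of the stages before and after selection did not place the members in a single stage. Of 13 tested genes of preselection CD4+CD8+ cells, 3 rose and 4 fell (median -0.28 per library and 1.51 per cell). Without the deepest cells, a setting that also drops OT2 NoSelection, 3 rose and 0 fell of 11 tested (median 0.47). With at least 4000 RNA UMIs 5 rose and 2 fell of 13 (median 0.49). Leaving out OT2 NoSelection alone gave 5 higher and 2 lower of 11 (median 0.23). The sign of the median thus changed with the depth floor and also with that mouse, and their parts were not tested apart. Dntt, the enzyme that adds nucleotides at receptor junctions, was 603, 282, 409 and 301 CPM in members against 304, 134, 269 and 492 CPM, higher in 3 of 4 mice, and rose by 0.67. Mns1 rose by 1.58 and Aqp11 by 0.63. Cd4 was 8.02, 12.9, 0 and 8.37 CPM against 32.9, 52.5, 33.6 and 219 CPM and fell by 2.70. Rag1, the recombinase gene, was 8.02, 1.84, 6.65 and 33.5 CPM against 4.11, 0, 12.8 and 429 CPM; its fall of 2.20 came from OT2 NoSelection and OT1 NegSelected, and among cells with at least 4000 RNA UMIs it was at 0.49. Cd8a (-0.28) and Arpp21 (0.35) were not called, though Cd8a rose by 1.20 without the deepest cells.

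Of 14 tested genes of the beta-selection blast, 5 rose and 1 fell (median 0.46 per library and 2.21 per cell), not far from the 23.8% that rose among all genes. Cd24a, heat-stable antigen of immature thymocytes, was 222, 172, 246 and 243 CPM in members against 52.6, 71.3, 90.4 and 102 CPM, without overlap. Slc7a5, a carrier of large amino acids, rose by 2.08, Cdk6 by 0.98 and Tfrc, the transferrin receptor, by 0.87. Ptcra, the surrogate alpha chain that defines the stage, was 0, 1.84, 19.9 and 33.5 CPM against 0, 0, 2.32 and 72.0 CPM and was not called (0.48, adjusted p = 0.64). Il2ra (0.90, adjusted p = 0.22) and Notch1 (0.08) were not called either. Dtx1, a target of Notch, fell by 1.77, with a per-cell value of -0.06 that was not called. Without the deepest cells 1 of the 11 genes still tested rose and Cdk6 was at -0.28.

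Genes that a receptor signal induces mostly held a smaller part of the members' RNA. Of 10 tested early genes, 1 rose and 6 fell (median -0.68 per library and 0.97 per cell). Nr4a1, an immediate product of receptor signalling, was 26.1, 14.8, 3.32 and 33.5 CPM against 49.3, 47.5, 111 and 48.0 CPM and fell by 1.71, with a per-cell value of -0.07. Cd69 fell by 1.25 per library and was at 0.39, not called, per cell. Egr1 was not called (-0.06), and Myc rose by 0.79, higher in 3 of 4 mice, but was at -0.25 without the deepest cells. Of 10 tested genes of deletion and agonist selection, 0 rose and 8 fell (median -1.17 per library and 0.51 per cell); Tnfrsf9 was at -3.12, the costimulator Icos at -3.09 and Tnfrsf18 at -2.78. Of 6 tested p53 targets, 0 rose and 3 fell (median -0.40 per library and 1.24 per cell), with the death gene Bbc3 at -3.30. Of 16 post-selection genes, 0 rose and 11 fell (median -0.93 per library and 0.72 per cell). The factors Tcf7 (0.19), Lef1 (-0.04) and Id3 (0.04) were not called.

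Of the lineage and effector genes tested, most fell per library and 1 rose. Of 4 CD4 lineage genes 3 fell, with Cd40lg at -4.27 and Cd4 at -2.70, and of 6 CD8 lineage genes 5 fell, with Itgae at -3.89 and Nkg7 at -1.89; the medians of both lists were near 0 per cell (-0.03 and 0.08). Of 12 tested gamma delta genes, 0 rose and 9 fell (median -0.94 per library and 0.77 per cell). Sox13, a transcription factor of that lineage, was 42.1, 33.2, 43.2 and 33.5 CPM against 298, 86.1, 239 and 228 CPM and fell by 2.29. Trgc1, a constant segment of the gamma chain, was not called (0.08), but fell by 1.53 without the deepest cells. Of 9 tested innate effector genes, 8 fell and 1 rose. S100a4, a calcium-binding protein of migrating cells, fell by 3.72, Il2rb by 2.02 and Id2 by 2.38. Gzma, which encodes granzyme A, rose by 1.16: it was 1415, 718, 1506 and 1121 CPM in members against 653, 257, 688 and 729 CPM, higher in 4 of 4 mice and without the deepest cells (0.95). Of 14 tested cytokine receptor genes 12 fell (median -1.42 per library and 0.22 per cell), with Tgfbr2 at -2.48. Of 13 genes of CD3 and proximal signalling, 11 fell by small amounts (median -0.59 per library and 1.15 per cell), with Cd3e at -0.53 and Lck at -0.38, both higher per cell. Of the genes named as changed in these lists, Cad, Fbl, Tpi1, Slc2a1, Hk1, Tfrc, Cd69, Dntt, Aqp11, Cd4, Cd40lg and Cd3e also did not pass without the deepest cells.

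**Figure D4:**
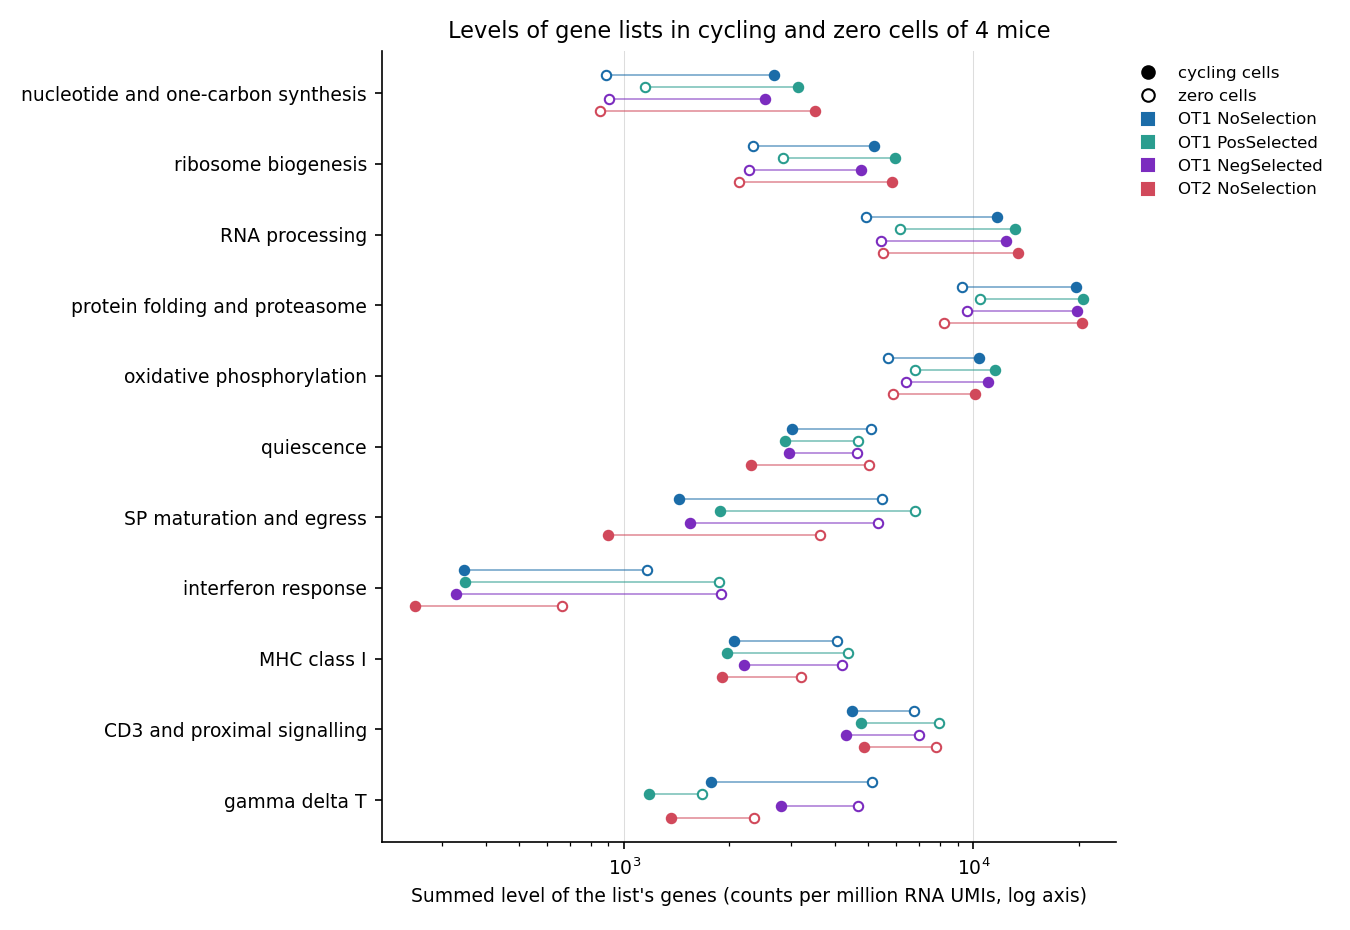
Summed CPM of each gene list (log axis) in cycling cells (filled) and cells with a rule sum of 0 (open), 1 point per mouse for 4 mice. Nucleotide synthesis runs from 2526 to 3524 CPM in members against 852 to 1147 CPM, and the interferon list from 251 to 351 CPM against 663 to 1893 CPM in those mice.

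On the surface, the pooled cycling cells bound more antibody to CD25, neuropilin-1, KIT and CD29 and less to the receptor beta chain. Of 116 antibodies tested in the same 4 mice, 7 were higher (6.03%) and 6 lower (5.17%) at an adjusted p under 0.05 (edgeR). The oligonucleotide tags that stand for 4 of the antibodies are shown, since every surface value is a count of 1 such tag.
CD25: ACCATGAGACACAGT
Neuropilin-1: CCAGCTCATTCAACG
CD4: AACAAGACCCTTGAG
CD8A: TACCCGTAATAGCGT

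CD25, the alpha chain of the interleukin-2 receptor and a marker of thymocytes before and at beta-selection, was 1410, 1923, 1143 and 9197 antibody CPM (tag UMIs per 1000000 antibody UMIs of the class) in members against 320, 340, 448 and 1120 CPM, a rise of 2.39 (SE 0.33, adjusted p = 0.0109). The groups did not overlap, but few cells carried the rise. The median member held 2, 1, 2.5 and 8 CD25 UMIs against 1, 1, 1 and 2 in comparison cells, and 3, 2, 5 and 3 members held 10 or more. The highest cell held 49.7, 41.9, 30.3 and 35.7% of the members' CD25 UMIs. In OT2 NegSelected, which was not fitted, the 2 members held 56 and 146.

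Neuropilin-1, a coreceptor found on some thymocytes, shifted across more of the cells. It was 10380, 9500, 6972 and 32850 CPM in members against 2407, 2947, 3082 and 4534 CPM, a rise of 2.08 (SE 0.35, adjusted p = 0.0224), again without overlap. The median member held 26, 21, 13 and 42 UMIs against 8, 10, 11 and 11.5. Members with 10 or more UMIs were 80.6, 81.8, 70.0 and 71.4%, against 44.6, 50.2, 61.1 and 56.4% of comparison cells.

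KIT, the stem cell factor receptor of early precursors, rose by 1.21, from 1577 to 3964 CPM in comparison cells to 3941 to 7122 CPM in members. CD29, the integrin beta-1 chain, rose by 1.13, CD24, the protein of Cd24a, by 0.81, and CD81 by 0.68, each in 4 of 4 mice, and LY108 rose by 0.63, higher in 3 of 4. For KIT the medians per cell were 8, 5, 15.5 and 6 UMIs in members and 7, 5, 9 and 4 in comparison cells. For CD29 they were 18, 9, 27 and 18 against 10, 10, 15 and 17, so in raw UMIs the median member of OT1 PosSelected was not higher for either. For CD24 they were 19, 12, 82.5 and 22 against 19, 19, 32 and 44.5, so in raw UMIs the median member was not higher in 3 of the 4 mice. Raw UMIs also follow antibody depth, which was lower in members of OT1 PosSelected (median 1645 against 4302) and OT2 NoSelection (947 against 4525.5). The share of antibody UMIs in the typical cell was not tested.

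The antibodies that fell included those to the receptor. TCRB was 3111, 3678, 2568 and 1445 CPM in members against 5491, 6177, 5215 and 4650 CPM, a fall of 0.91 (SE 0.12, adjusted p = 0.0109), and the antibody to the transgenic Vb5 chain fell by 0.60. In members of OT2 NoSelection, CD49F took 4662 of the 15223 antibody UMIs, and 1 cell held 95.7% of those 4662. That cell lowers the CPM of every other antibody in that class, here and above. ITB7, the integrin beta-7 chain, fell by 1.14 and CD103, its partner, by 0.93, in the same direction as Itgae, the gene of CD103. ICOS fell by 0.68. CCR2 fell by 0.73 at under 1 UMI per cell. All 6 were lower in 4 of 4 mice.

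Several antibodies of thymocyte stages were not called. CD4 was at -1.25 (adjusted p = 0.0678, lower in 4 of 4 mice), CD8A at 0.79 (adjusted p = 0.166, higher in 3 of 4), CD5, which follows the strength of receptor signals, at -0.72 (adjusted p = 0.197) and the Va2 chain at -0.47 (adjusted p = 0.108). CD69, CD44, CD62L, CD127 and the gamma delta receptor lay between -0.16 and 0.19. With all antibody counts scaled per cell, 2 were higher and 0 lower, with a median shift of -0.33, and without OT1 NoSelection 0 of 115 passed in either direction, so the surface calls depend on which mice are in the fit.

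**Figure D5:**
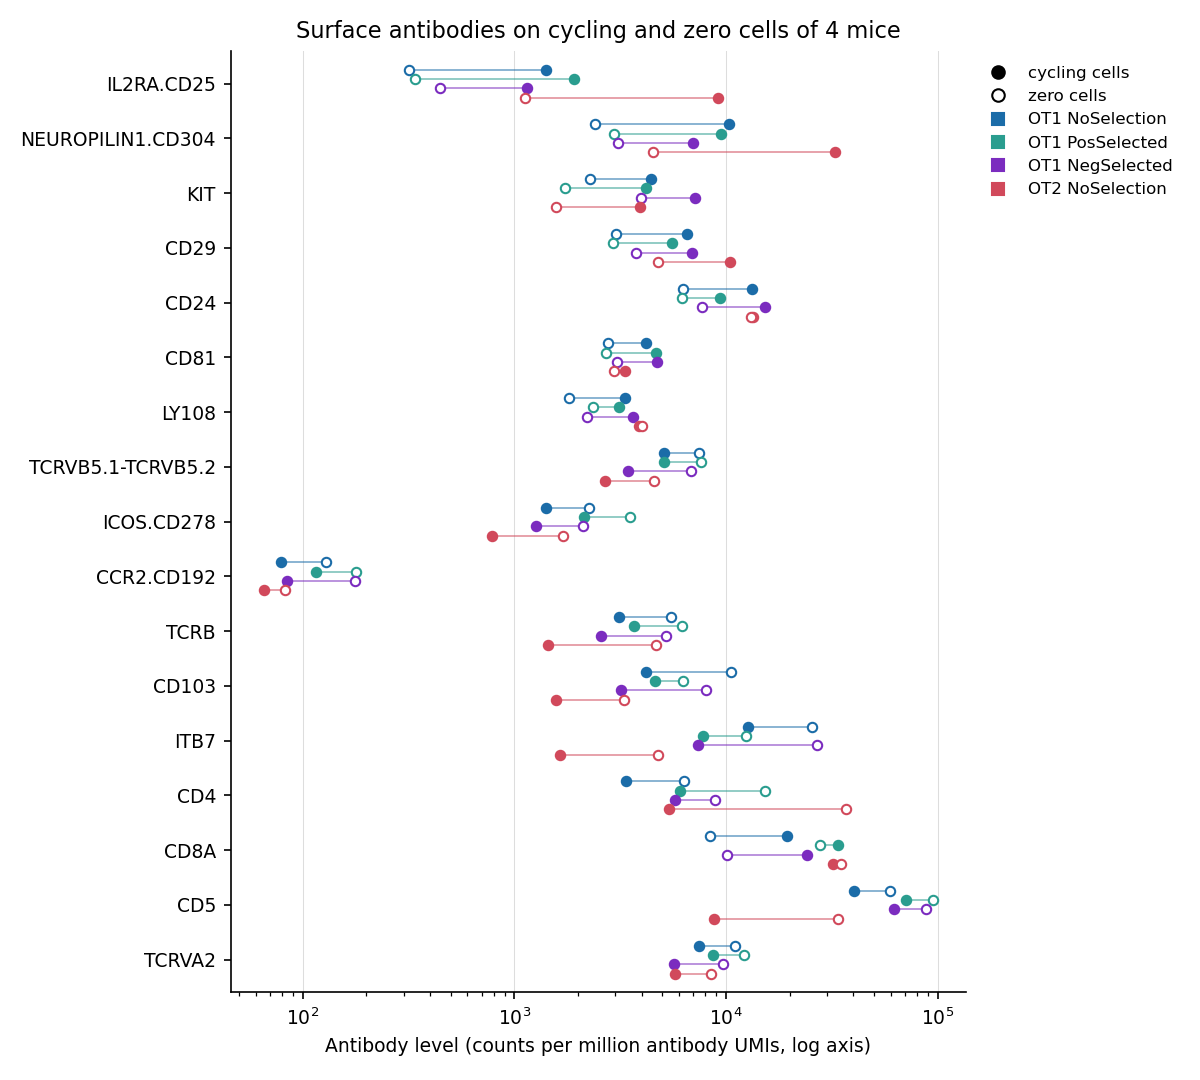
Antibody CPM (log axis) of named antibodies in cycling cells and in cells with a rule sum of 0, 1 point per mouse and class for 4 mice. CD25 reaches 9197 CPM in members of OT2 NoSelection against 1120 CPM in its comparison cells, and TCRB is lower in members of all 4 mice.

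Between receptors, the cycling cells could be compared only as 1 OT2 mouse (7 cells of NoSelection) against 3 OT1 mice (84 cells), with the spread taken from the OT1 mice. Few genes differed: of 6944 tested, 8 were higher in OT2 (0.115%) and 8 lower (0.115%; edgeR, adjusted p under 0.05). Receptor segments were among them. Trbv12-2 was 527 CPM in OT2 and 2.01, 0 and 3.32 CPM in OT1, and Trbv12-1 was 502 CPM in OT2 and 2117, 2533 and 2124 CPM in OT1. Trac, the alpha constant segment, was 854 CPM against 110, 177 and 110 CPM (2.57 higher), and Trbc2, a beta constant segment, was 561 CPM against 1638, 1880 and 1399 CPM (-1.64). Trgv2 was 586 CPM against 42.1, 60.9 and 6.65 CPM, and Trgv4 was 5.18 higher.

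Outside the receptor, Xist differed most, at 544 CPM in OT2 against 4.01, 0 and 0 CPM, as it did in the comparison cells. Rnf43, a ubiquitin ligase of Wnt signalling, was 268 CPM against 2.01, 1.84 and 3.32 CPM; comparison cells held 393 to 585 CPM in the OT2 mice and 2.32 to 4.10 CPM in the OT1 mice, so that difference was not limited to cycling cells. Ly6d, a surface protein of early lymphocytes, was 586 CPM against 176, 77.5 and 39.9 CPM (2.41 higher, adjusted p = 0.0083), and Gm47283 was 4.11 higher. Camk2b, a calmodulin-dependent kinase, was 8.37 CPM against 142, 126 and 190 CPM (-4.18, adjusted p = 0.0201). The cytoskeletal genes Vim (-1.38), Cnn2 (-1.89) and Tmsb4x (-0.86), Arhgdib (-1.0) and the small nuclear RNA Rn7sk (-2.53) were lower.

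By antibody, 3 of 115 were higher in OT2 (2.61%) and 0 lower. CD25 was 3.05 higher and neuropilin-1 2.30 higher (adjusted p = 0.0365 for both). Without OT1 NoSelection neither passed (adjusted p = 0.198 for both), and neuropilin-1 did not pass without either of the other OT1 mice (0.117 and 0.0771). Comparison cells of OT2 NoSelection were also above those of the OT1 mice, at 1120 against 320 to 448 CPM for CD25 and 4534 against 2407 to 3082 CPM for neuropilin-1. CD49F was 5.34 higher in the fit, but 1 cell held 95.7% of its 4662 UMIs, and the median was 39 UMIs in OT2 against 17, 13 and 23. Receptor, host, mouse and Xist status cannot be told apart here.

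The change from comparison to cycling cells was also set between the receptors, as the interaction of class and receptor. Of 8493 genes, 4 had a larger value in OT2 (0.0471%) and 24 a smaller one (0.283%). Hspa5, a chaperone of the endoplasmic reticulum, was 636 CPM in members of OT2 NoSelection against 222 CPM in its comparison cells, and 455, 378 and 482 CPM against 524, 359 and 562 CPM in OT1 (interaction 1.55, SE 0.32, adjusted p = 0.0047, edgeR). Inpp4b was 100 CPM against 195 CPM in OT2 and 10, 55.4 and 6.65 CPM against 148, 517 and 202 CPM in OT1 (2.50, adjusted p = 0.0298). Nebl (-4.69), Btg2 (-4.14) and Rn7sk (-3.07) were among the genes with a smaller value, and Btg2 was near the floor in the OT2 members (8.37 CPM). The rest included genes of preselection CD4+CD8+ cells such as Rag1, Cd8a and Dntt, and in OT2 NoSelection 32 of 94 comparison cells and 0 of 7 members lay in that gate. Without OT1 NegSelected, 0 genes passed in either direction.

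Among OT1 members, the CD4-CD8+ cells were set against the CD4-CD8- cells, a comparison chosen after the gates had been seen. Of 3785 genes tested in 3 mice, 0 were higher (0%) and 0 lower (0%) at an adjusted p under 0.05 (edgeR), with 104 and 107 at an unadjusted p under 0.05; DESeq2 called 0 higher and 4 lower. Without the cells above the 95th percentile of RNA UMIs, 1658 genes were tested among members, and 13 were higher and 12 lower. In comparison cells the same contrast called 63 of 7075 genes higher (0.89%) and 143 lower (2.02%). The 6 genes of lowest p were all lower in the CD4-CD8+ cells, at an adjusted p of 0.0638. Trgc1 was 39.3, 0 and 258 CPM in CD4-CD8+ cells and 483, 166 and 1016 CPM in CD4-CD8- cells (-2.89), and Trgc2, another gamma constant segment, was at -4.08. Gzma was 719, 50.9 and 478 CPM against 1801, 862 and 2229 CPM (-2.18). Etv5 (-2.42), a transcription factor, Igfbp4 (-2.37), a binding protein of insulin-like growth factors, and Crip1 (-1.66) completed the 6. The values were lower in each of the 3 mice. Of 111 antibodies, 2 were higher (1.8%) and 0 lower: CD8A, which set the gate, and CD8B (2.09, adjusted p = 0.0155), its partner chain.

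Pooled over the OT1 mice, RNA of the same gates showed the coreceptor and receptor genes beside the antibody gate. Cd8a was 127 CPM (Poisson interval 105 to 151) in 54 CD4-CD8- members, 143 CPM (61.6 to 281) in 5 CD4+CD8+ members and 402 CPM (338 to 476) in 25 CD4-CD8+ members. Trac was 87.6 CPM (69.8 to 109), 143 CPM (61.6 to 281) and 275 CPM (222 to 337) in the same order. Trgc1 was 437 CPM (396 to 481) in CD4-CD8- members, 82.8 CPM (55.0 to 120) in CD4-CD8+ members, and gave 0 UMIs in CD4+CD8+ members, which allows up to 53.5 CPM. Mki67 was 537 CPM (492 to 586), 767 CPM (555 to 1033) and 864 CPM (768 to 969). Pooled cells are not replicates, and these intervals cover counting error only.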

How the data were processed

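The authors deposited UMI counts per gene and per antibody for each cell, made with Cell Ranger 8.0.1 and Seurat on mm10 per the submitters' processing notes; filters on cells, hashtag calls and doublet removal are not given in the sources used here. Each cell was assigned to its mouse by the deposited cell table. Receptor sequence libraries were not analysed here, and no doublet caller was run. Results for some list members are not reported here.

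The rule, gene lists and named-gene rule were chosen with earlier results of these data known. After a first fit, further replication and mitosis genes were set aside. Counts were summed per mouse and class, and genes were tested with edgeR 4.0.16 (quasi-likelihood, TMM, filterByExpr, R 4.3.3) with the mouse as a block, because both classes come from the same animal, and Benjamini-Hochberg adjustment over all genes tested. The paired fits had 3 residual degrees of freedom and the receptor fit 2. Mice are separate animals, 1 per receptor and host, so no combination of receptor and host is replicated. In the paired fits p-values set the class difference against its variation between these mice, with variance estimates shared across genes or antibodies. Small p-values of single genes thus rest in part on the variance of other genes. In the receptor fit the spread comes from the OT1 mice only. Gates came from a Gaussian mixture (scikit-learn 1.9.0) and were compared by exact permutation (scipy 1.17.1). Named genes were the 12 higher and 12 lower called genes that changed most among those averaging 50 CPM or more with 1 direction in all mice (8 and 8 between receptors, by the same rule; there 3 and 6 qualified), with 2 or more members of each of 33 lists. Genes named from the receptor segments, and further list members, were chosen after their values were seen. The fit was checked on simulated data. Alternatives were DESeq2 1.42.0, limma-voom (limma 3.58.1), other size factors, filters, thresholds, depths, gates and leaving out each mouse. Promoters are from RefSeq (GRCm38.p6), with 5 of 6 rule genes matched.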

Additional observations from a re-analysis of the deposited data

Results flagged for a closer look

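The 7 list genes given here had an effect of cycling (members against cells with a sum of 0, on the log2 scale) that differed between OT2 and OT1 by the interaction test of edgeR, at an adjusted p from 0.00047 to 0.036. The effect was lower in the OT2 mouse than in OT1 for all 7. The value, OT2 minus OT1, was -4.143 for Btg2, -3.992 for Rag1, -2.429 for Cd8a, -2.312 for Ets2, -1.868 for Arpp21, -1.863 for Cd8b1 and -1.695 for Dntt.

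Rag1, the recombinase gene, was 33.5 CPM in members and 429 CPM in comparison cells of OT2 NoSelection, against 1.84 to 8.02 CPM and 0 to 12.8 CPM in the OT1 mice. The 33.5 CPM rest on 4 UMIs, all in 1 CD4-CD8+ member, with 0 in the CD4-CD8- members. Arpp21, a gene of CD4+CD8+ thymocytes, was 301 against 651 CPM in OT2, and 323, 148 and 239 against 223, 66.4 and 178 CPM in OT1. Dntt was 301 against 492 CPM in OT2 and higher in members of all 3 OT1 mice. For both genes the OT2 mouse moved down and every OT1 mouse moved up.

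Btg2, an inhibitor of division, was lower in members of every mouse: 8.37 against 288 CPM in OT2, and 70.2, 70.1 and 86.4 against 180, 144 and 120 CPM in OT1. The 7 OT2 members held 119483 RNA UMIs together, so 8.37 CPM lies near the lowest level they can show. Cd8a was 126 against 621 CPM in OT2, and 216, 225 and 113 against 90.3, 515 and 53.3 CPM in OT1, so OT1 PosSelected moved with OT2. Ets2 and Cd8b1 were 243 and 576 CPM in the OT2 comparison cells and 58.6 and 126 CPM in its 7 members. Of those comparison cells 34.0% were CD4+CD8+, against 3.19 to 13.1% in OT1 and 0 of the 7 OT2 members. The part of that mix in the 7 results was not tested, and none of the 7 passed without OT1 NegSelected.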

How the results depend on the processing

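Named genes of the cycling comparison were recomputed 1901 times over 104 genes, and 1741 kept their direction and call. Counts of called genes other than cycle genes, 1353 higher and 1657 lower, became 553 and 670 without cells over the 95th percentile of RNA UMIs, 153 and 272 within CD4-CD8+ cells (chosen after seeing the data, 2102 genes tested), 860 and 1015 with DESeq2, and 6004 and 90 per cell (chosen after seeing the data). Per cell, these lower genes were above 0: Slc2a1 0.56, Hk1 0.91, Aldoa 1.31, Cd69 0.39, Themis 0.74, Cd8b1 1.09, Klf2 0.35, H2-D1 0.00246, B2m 0.54, Trdc 1.06, Lcp2 0.49, Cd3e 1.21 and Lck 1.35. Without the deepest cells Cdk6 was at -0.28, Myc at -0.25, Cd8b1 at 0.47 and Lck at 0.11. Within CD4-CD8+ cells Myc was at -0.0153, Trdc at 0.0946 and Cpa3 at 0.24, and with at least 4000 RNA UMIs Rag1 was at 0.49. The cause was not tested.

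Antibody calls, 7 higher and 6 lower, ranged from 0 to 5 higher and from 0 to 4 lower when each mouse was left out; without OT1 NoSelection 0 passed, without OT1 NegSelected 1 and 0, without OT1 PosSelected 4 and 3. With no replicate block, where the pairing by mouse is dropped, 1 was higher and 0 lower, with DESeq2 12 were higher, within CD4-CD8- cells 4 were higher, with at least 2000 antibody UMIs 3 were lower, and per cell 2 and 0. The block changed no other count of calls by over 1.5 times, apart from the CD8B call below.

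Between receptors, 8 and 8 genes became 13 to 18 higher and 31 to 41 lower when an OT1 mouse was left out, 5 and 3 with DESeq2, and 21 and 37 with no filter. Antibodies fell from 3 to 0 without OT1 NoSelection, 2 without OT1 PosSelected and 1 without OT1 NegSelected. The interaction gave 0 to 2 higher and 0 to 11 lower genes with a mouse left out. For CD4-CD8+ against CD4-CD8- members, 0 and 0 genes became 0 to 2 and 1 to 4 with a mouse left out, 4 lower with DESeq2, 9 and 20 with no filter, 2 and 6 with gate thresholds 0.5 higher on the log2 scale, 7 and 11 with thresholds 0.5 lower, and 13 and 12 without the deepest cells; antibodies other than CD8A went from 1 and 0 to 0 to 1 in each direction with a mouse left out, and 0 with no replicate block.

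The CD4-CD8- gate difference of 7.54 points became -4.09 with at least 4000 RNA UMIs and -3.63 without OT2 NoSelection. It was 18.7 without OT1 NoSelection, the other end of the range with a mouse left out. With at least 2000 antibody UMIs, which also drops OT2 NoSelection, it was -4.62. The CD4+CD8+ difference became 0.71 with at least 4000 RNA UMIs. Without the deepest cells the cycling share was 5.52, 7.12 and 4.66% in the OT1 mice and 1.96% in OT2 NoSelection, and thinned it was 5.53% in OT1 NegSelected. A host term, a fit within CD4+CD8+ cells, and the receptor and interaction fits without OT2 NoSelection, the only OT2 mouse in them, could not be made. With 7 to 33 members per mouse, small changes were below what these counts can show.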

Other observations

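The 2 cycling cells of OT2 NegSelected entered no test, since the mouse had under 5. Both were CD4-CD8-, with 5013 and 11401 RNA UMIs and rule sums of 6 and 42. They held 56 and 146 UMIs of the CD25 antibody and 228 and 431 of the CD24 antibody, against medians of 1 and 31.5 in the 166 comparison cells of that mouse. Their Xist level was 2559 CPM, and Trbv12-2 was 2254 CPM.

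Comparison cells also carried CD25 antibody. Those with 10 or more UMIs were 13 of 94 in OT2 NoSelection, 6 of 248 in OT2 PosSelected and 20 of 166 in OT2 NegSelected, and 0 of 251, 1 of 237 and 4 of 167 in the OT1 mice. In OT2 NegSelected 1 comparison cell held 449 of the 1254 CD25 UMIs.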
